A study of Mus musculus with 5 samples.

Results

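The cells described here were Cd34 and Kit double-positive cells of mouse bone marrow, labelled early stem and multipotent progenitors. That label stands for the rare cells from which every blood lineage is renewed, and the gated cells were a mixture. The cells were chosen by a gate on raw counts of unique molecular identifiers (UMIs), each of which stands for 1 captured mRNA molecule. A barcode entered the gate when it had at least 500 UMIs, at most 10% of them from mitochondrial genes, at least 1 UMI of Cd34, at least 1 of Kit, fewer than 5 of Elane and Ms4a3 together, fewer than 2 of Ebf1, fewer than 5 of Mcpt8, Prss34, Cpa3 and Ms4a2 together, and none of Csf1r. It held 118 of the 29679 barcodes of sufficient quality in the whole series. Below it is called the stem gate. Of 275 barcodes with both Cd34 and Kit, the granule gene limit put 97 into a second gate, called the GMP gate after the granulocyte-monocyte progenitor (in which Csf1r was allowed), 19 passed all other limits but held a Csf1r UMI (the Csf1r gate), 37 were over the basophil and mast cell limit and 4 over that on Ebf1.

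The marrow came from 5 non-irradiated C57BL/6J mice, aged 8 weeks, and every mouse had received 1000 BCR-ABL1+ pre-B acute lymphoblastic leukaemia cells through the tail vein. The mice were killed on 5 different days (0, 3, 6, 9 or 12), 1 on each, and that of day 0 directly after transplantation, so no mouse was free of transplanted cells and none was a repeat of another. Flushed marrow and collagenase-digested bone were combined, red cells were lysed, and the cells were frozen before 10x Genomics 3′ sequencing. The question put to these cells was how the stem and progenitor compartment looked as the leukaemia grew. By the paper's flow cytometry, leukaemia cells in the marrow were absent or very rare up to day 9 and more frequent at day 12. With 1 mouse a day, the day and the mouse cannot be told apart.

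Blood stem cells sit at the top of the marrow hierarchy and divide rarely. Their transcription factors, among them Hlf, Meis1, Mecom and Gata2, hold the self-renewing state. Multipotent progenitors below them gain the receptor Flt3 and begin to transcribe genes of the lymphoid, erythroid or myeloid lineages at low level, which is called priming. Cd34 and Kit, a surface sialomucin and the stem cell factor receptor, are carried by both populations and by the myeloid progenitors that follow them.

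The gate chose cells by the genes named above, and those genes are given only as a description. Cd34 stood at 1 UMI in 27 of the 118 cells, and Kit at 1 UMI in 62, so many cells lay on the edge of the gate. Elane and Ms4a3 together were at 0 in 66 cells, at 1 in 31 and at 4 in 1. The nearest cells outside held 5 UMIs of the pair in 1 cell and 6 in 3 cells, while the median over the GMP gate was 61. Ebf1 was at 1 UMI in 8 members and at 0 in the other 110. Of the 19 cells kept out by Csf1r, 14 held a single Csf1r UMI.

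The libraries held 33425695 to 43554233 UMIs, and 4870 to 6944 barcodes were of sufficient quality in each. Member cells held a median of 9913 UMIs, with medians of 8546, 10717, 10193, 9092 and 9536 on days 0, 3, 6, 9 and 12, against 20788 in the GMP gate. Between 40 and 61 barcodes of sufficient quality were shared by each pair of libraries, and no member barcode was a member in another library. The doublet caller Scrublet marked 2.52% of barcodes at day 0 and at most 0.0539% elsewhere, so it did not work in those libraries, and its highest 5% of scores were used in its place. They held 4 of the 118 members.

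The stem gate held 10, 30, 28, 36 and 14 cells on days 0, 3, 6, 9 and 12. Its share of barcodes of sufficient quality was 0.1598% (95% interval 0.0766 to 0.294) at day 0, 0.616% (95% interval 0.416 to 0.878) at day 3, 0.463% (95% interval 0.308 to 0.669) at day 6, 0.518% (95% interval 0.363 to 0.717) at day 9 and 0.252% (95% interval 0.138 to 0.422) at day 12, with exact binomial intervals that cover counting error only. The day 0 share was below those of days 3, 6 and 9 with no overlap of the intervals, and the day 12 interval overlapped those of all 4 other days. No test between days was possible with 1 mouse each. As a share of barcodes with both Cd34 and Kit, the members made up 35.7, 45.5, 50.9, 40.9 and 36.8%, and all 5 of these intervals overlapped. When every barcode was first thinned to 3000 UMIs, the day 3 share was 0.217%, below the 0.424% of day 6 and the 0.573% of day 9, so the high rank of day 3 was not kept. The day 0 share was then 0.09297%, 0.0192 to 0.271, an interval that overlapped those of day 3 (0.217%, 0.0871 to 0.446) and day 6 (0.424%, 0.238 to 0.699) but not that of day 9 (0.573%, 0.364 to 0.859). Days 0 and 12 each held fewer than 20 members, so their values rest on few cells.

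**Figure D1:**
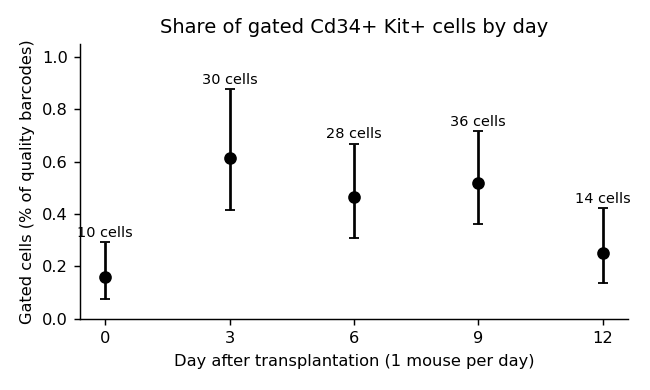
Share of barcodes of sufficient quality that fell in the stem gate (vertical axis, percent) by day after transplantation (horizontal axis), 1 mouse per day. Points are shares, bars are exact 95% binomial intervals and the labels give the number of cells, from 10 at day 0 to 36 at day 9.

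Before the results, 7 members stood apart. The 13 neutrophil genes of a marker list (S100a8, S100a9, Camp, Ngp and others) took 0.802% to 4.20% of the UMIs in 111 members and 18.9% to 57.9% in the other 7, of which 3 were from day 3, 1 from day 6 and 3 from day 9. Of these 7, 4 were among the highest 5% of doublet scores. In free RNA, taken from barcodes of low UMI number, the same genes were at 2041 to 2965 UMIs per 10000. S100a8 had a UMI in 118 of 118 members and in 100% of B cells, which should lack it, so its presence in a cell is read as background. Sums of the neutrophil list are therefore given with and without the 7 cells. Over all members the list was at 110, 545, 245, 410 and 175 UMIs per 10000 on days 0, 3, 6, 9 and 12. Without the 7 cells it was at 110, 150, 172, 156 and 175.

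**Figure D2:**
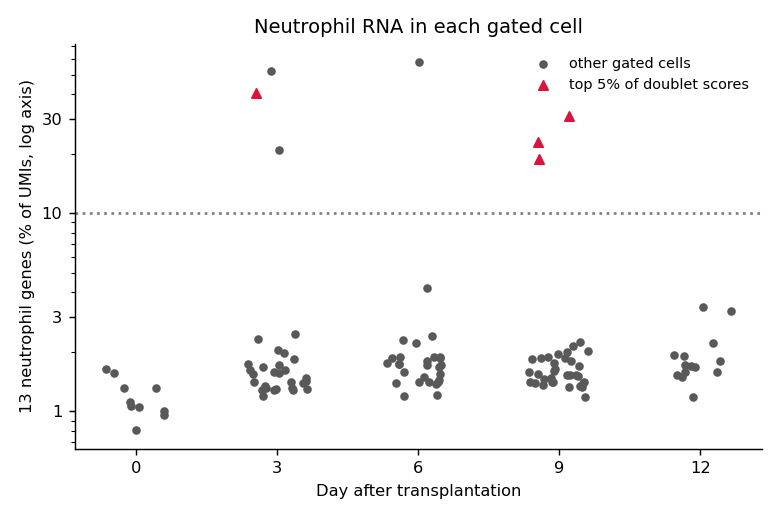
Percent of each member's UMIs from 13 neutrophil genes (vertical log axis) by day, with 1 point per cell. Triangles are cells among the highest 5% of doublet scores and the dotted line is at 10%; 7 cells lie above it and 111 below.

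The label was checked against markers that the gate did not use. Lmo2, a bridging factor of the stem cell transcription complex, had a UMI in 111 of the 118 members, and Cdk6, a G1 cyclin-dependent kinase that controls exit from quiescence, in 97. Lmo2 was present in 94.1% of members against 13.4% of 18041 neutrophils and 19.5% of 2931 B cells. The neutrophils (S100a8 and S100a9 at 5% or more of UMIs, under 5 UMIs of Cd79a and Cd79b) held a median of 3409 UMIs and the B cells (the reverse of both limits) 2076. Each cell with at least 1000 UMIs was therefore also thinned to 1000, which left out 997 neutrophils and 107 B cells. Thinned shares for Lmo2 were 39.8%, 2.97% and 9.28%. For Cdk6 they were 28.8%, 1.06% and 3.399%. Hlf, the PAR bZIP factor of stem cells, was present in 50.8% of members, 0.998% of neutrophils and 0.0682% of B cells, and Meis1, a homeobox partner of the Hox proteins, in 58.5%, 0.3104% and 0.853%. All 4 genes were thus more frequent in the gate than in either class, also after thinning.

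Markers of most other cells were scarce in the gate. Of 13 stromal and endothelial genes, 9 had any count, and the list was at 0 to 0.294 UMIs per 10000 over the 5 days. The 6 eosinophil genes were at 0 to 0.164. Of 10 basophil and mast genes, 8 (Fcer1a, Cyp11a1, Tpsab1, Tpsb2, Cma1, Il4, Ccr3 and Cd200r3) were at 0. The list of 10 B genes was at 0.404 to 3.59 against 6.43 to 46.3 in free RNA, with Pax5 in 1 member and Ms4a1 in 3. The T and NK genes were at 0.522 to 0.787 against 4.67 to 13.1. The 8 erythrocyte genes were at 0.5905, 0.464, 1.598, 2.22 and 0 on days 0, 3, 6, 9 and 12 against 0.169 to 13.2 in free RNA. At least 1 of their UMIs was found in 59 of 118 members, 5 of the genes had counts, mostly those of haemoglobin, and Alas2 and Slc4a1 were among those at 0. Il7r, the receptor of committed lymphoid progenitors, had a UMI in 7 members, and Gata1, Klf1 and Epor, which mark committed erythroid cells, in 3, 2 and 2.

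How the members differed from the cells kept out by the granule gene limit was asked by comparing the stem gate with the GMP gate in the same 5 mice. Counts were summed over the cells of each gate in each library and tested with edgeR's quasi-likelihood test with the library as a term, after the gate's own genes were left out. Of 3722 genes tested, 496 (13.3%) were higher and 464 (12.5%) lower in the stem gate at an adjusted p under 0.05, and the median log2 fold change over all of them was 0.004. DESeq2 with the same term called 201 higher and 194 lower. Since the GMP gate was cut on 2 granule genes in the same cells, the other granule genes that follow them are not independent of the rule.

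Stem cell genes were higher in the stem gate. The filter on low counts let 10 of the list's 25 genes be tested, and those 10 rose, beside 13.3% of all genes tested (median log2 fold change 3.05 against 0.004 over all genes). A low gene could pass this filter only where it was high in a gate, so the count is a description. With no filter 25 were tested, 16 rose and 0 fell. The 13.3% is not the share to set beside these counts, and the totals over all genes with no filter are given below with the cell cycle genes.

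Hlf (ENSMUSG00000003949, chr11:90336536-90390895, minus strand, GRCm38) had the largest fold among genes that passed, held at least 100 counts over both gates and were higher in every library. Its level was 1.57, 1.42, 1.17, 1.16 and 0.337 UMIs per 10000 in the stem gate on days 0, 3, 6, 9 and 12 and 0, 0.0197, 0.0529, 0.0167 and 0.0261 in the GMP gate. The summed level was higher in the stem gate in every library (log2 fold change 5.395 ± 0.37 (SE), adjusted p = 4.69e-10). Meis1 was at 1.18, 1.17, 1.24, 0.696 and 0.741 in the stem gate and 0.0377, 0.0984, 0.106, 0.134 and 0.131 in the GMP gate, again higher in every library (log2 fold change 3.15 ± 0.29 (SE), adjusted p = 5.50e-08). The bases before the start sites of both genes are shown with those of Dntt, a lymphoid gene that came next in this ranking. Each is the 250 bases upstream of a start in the RefSeq promoter table (GRCm38.p6), and capitals mark matches, on either strand, to AGATAA, bound by factors of the GATA family, or TGTGGT, bound by RUNX factors, whose matches did not overlap here.
Hlf (chr11:90390918-90391167, minus strand): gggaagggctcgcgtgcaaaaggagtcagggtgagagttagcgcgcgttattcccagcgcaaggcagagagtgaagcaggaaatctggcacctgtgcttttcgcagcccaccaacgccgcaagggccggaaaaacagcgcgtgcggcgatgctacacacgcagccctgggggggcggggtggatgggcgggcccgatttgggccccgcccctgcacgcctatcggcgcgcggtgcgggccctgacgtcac
Meis1 (chr11:19018970-19019219, minus strand): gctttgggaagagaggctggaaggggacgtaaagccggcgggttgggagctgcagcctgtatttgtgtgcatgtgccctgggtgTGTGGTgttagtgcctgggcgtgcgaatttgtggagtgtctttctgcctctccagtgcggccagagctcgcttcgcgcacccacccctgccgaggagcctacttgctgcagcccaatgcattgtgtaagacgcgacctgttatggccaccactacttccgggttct
Dntt (chr19:41029025-41029274, plus strand): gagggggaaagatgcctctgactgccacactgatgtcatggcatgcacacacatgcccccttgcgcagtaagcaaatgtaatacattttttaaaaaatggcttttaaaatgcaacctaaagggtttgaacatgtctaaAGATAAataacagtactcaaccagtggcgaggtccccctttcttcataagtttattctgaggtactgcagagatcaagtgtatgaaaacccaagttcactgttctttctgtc
AGATAA occurs in 9.99% of the 32851 windows of this length in the table and TGTGGT in 14.05%. The Hlf window held neither, Meis1 held TGTGGT once and Dntt held AGATAA once. These are matches of letters and not sites of binding.

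Other genes of the stem cell list followed the same direction. Angpt1, the angiopoietin ligand that stem cells secrete, was at 0.984, 0.791, 1.04, 0.928 and 0.674 UMIs per 10000 in the stem gate against 0.0377, 0.0197, 0.0265, 0.0837 and 0.183 (log2 fold change 3.62 ± 0.36 (SE), adjusted p = 1.73e-07). Myct1, a MYC target expressed in stem cells and endothelium, was at 0.915 against 0.0844 over all cells (log2 fold change 3.32 ± 0.31 (SE), adjusted p = 7.13e-08). Gimap6, a GTPase of the immunity-associated family, rose by 3.41 ± 0.37 on the log2 scale (adjusted p = 4.49e-07), and Ly6a, which encodes Sca-1, the classical stem cell surface antigen of this strain, rose by 2.95 ± 0.38 (adjusted p = 5.67e-06). Adgrg1, the adhesion receptor GPR56, was at 1.18, 1.91, 2.74, 2.58 and 1.75 against 0.226, 0.394, 0.662, 0.469 and 0.3399 and had a UMI in 93 members (adjusted p = 1.38e-09). Ifitm1, Hoxa9 and Erg also passed the test, with log2 fold changes of 2.17, 1.902 and 1.96.

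Several defining genes were too low to be tested and are given as counts. Mecom, the EVI1 locus factor, had a UMI in 2, 9, 7, 6 and 0 members on days 0, 3, 6, 9 and 12. Procr, the endothelial protein C receptor, was found in 14 members and Gata2 in 33. Slamf1 (CD150), Tek, Hoxb5, Fgd5 and Prdm16, which mark long-term stem cells, had a UMI in 1, 2, 2, 3 and 3 members. At this depth a missing UMI is no sign that a cell lacked the gene.

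Of 20 multipotent progenitor genes 18 were tested, 9 rose, 2 fell and 7 did not pass (median log2 fold change 0.58). Over all genes tested 13.3% rose and 12.5% fell. Nrgn, a calmodulin-binding protein, had the largest rise, at 0.689, 1.45, 1.11, 1.29 and 0.337 UMIs per 10000 in the stem gate against 0, 0.05903, 0.0794, 0.151 and 0 (log2 fold change 3.86 ± 0.32 (SE), adjusted p = 1.23e-08). Flt3, the receptor that marks the step from stem cell to multipotent progenitor, was at 0.689, 0.791, 0.913, 1.06 and 1.01 against 0.0377, 0.177, 0.291, 0.151 and 0.0784 (log2 fold change 2.52 ± 0.28 (SE), adjusted p = 8.50e-07). Its level was higher in the stem gate in every library. Ikzf2 (Helios), Egfl7, Adgrl4 and Sox4 rose by 2.19 to 2.61 on the log2 scale, and Cd27, Lyl1 and Ikzf1 by 1.22, 0.7 and 0.58. Spi1, which encodes PU.1, and the adhesion protein Emb fell (log2 fold changes -0.51 and -0.71). Cd48 had a log2 fold change of -0.09 ± 0.22, Runx1 of 0.29 ± 0.26 and Myb of -0.24 ± 0.13, and none of the 3 passed. Lmo2 of the label rose by 1.298 ± 0.15 (adjusted p = 1.61e-06). Cdk6 passed by a small margin (log2 fold change 0.39 ± 0.14, adjusted p = 0.0456) and was higher in 3 of 5 libraries. With no filter on low counts it no longer passed (log2 fold change 0.24, adjusted p = 0.361), and Ikzf1 did not either (adjusted p = 0.209).

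Lymphoid priming genes were transcribed in part of the gate. Of 16, 6 were tested and 5 rose, beside the 13.3% of all genes tested that rose, with Ighm at a log2 fold change of 0.29 ± 0.21 that did not pass (list median 1.78). As for the stem cell list, a low gene could pass the filter only where it was high, and with no filter 6 of 16 rose and 0 fell. Totals over all genes with no filter are given below with the cell cycle genes. Dntt (ENSMUSG00000025014, chr19:41029275-41059525, plus strand), the terminal transferase that adds bases at antigen receptor joints, was at 4.23, 2.54, 0.522, 1.75 and 1.68 UMIs per 10000 in the stem gate and at 0.0377, 0.0394, 0.0794, 0.0335 and 0.0523 in the GMP gate (log2 fold change 5.31 ± 0.31 (SE), adjusted p = 4.05e-11). It had a UMI in 31 members, its highest cell held 66, and the 5 highest cells gave 69.8% of its counts. Bcl11a, Mef2c, Satb1 and Il12a rose by 2.18, 1.22, 1.68 and 1.88, each in 5 of 5 libraries. Rag1, which starts receptor rearrangement, had a UMI in 4 members and Rag2 in 1.

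Of the 23 megakaryocyte and erythroid genes found in the files, 4 were tested and 4 rose, beside 13.3% of all genes tested. Here too a low gene could pass the filter only where it was high. With no filter on low counts, 20 were tested, 6 rose and 1 fell. The totals over all genes with no filter are given below with the cell cycle genes. Car2 (ENSMUSG00000027562, chr3:14886273-14900770, plus strand), a carbonic anhydrase of early progenitors and red cells, was at 4.63, 4.501, 3.196, 1.98 and 0.741 UMIs per 10000 in the stem gate and 0.0753, 0.0197, 0.0794, 0.0837 and 0.105 in the GMP gate (log2 fold change 5.29 ± 0.3 (SE), adjusted p = 3.16e-11), with a UMI in 86 members. Apoe, the lipid carrier, was at 0.197, 2.32, 1.04, 1.701 and 1.89 against 0.151, 0.315, 0.715, 0.385 and 0.235 and rose by 2.03 ± 0.27 (adjusted p = 8.06e-06). Muc13, a mucin of progenitors, and Cd9, a tetraspanin, rose by 1.42 and 0.65. Other genes of the list varied. Car1, Aqp1 and Ermap were at 0 counts, Vwf and Treml1 had a UMI in 1.69% of members each and Rhd in 0.847%. Pf4 was found in 11 members, Itga2b (CD41) in 15, Zfpm1 in 19.5% of members, F2r in 16.9%, and Gfi1b and Gp9 in 10.2% each.

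Myl10, Gimap1 and Ctla2a were among the genes outside the lists with the largest rises. Ctla2a, a cysteine protease inhibitor, was at 7.38, 6.52, 4.598, 3.81 and 4.58 UMIs per 10000 against 1.09, 0.0984, 0.291, 0.167 and 0.209 (log2 fold change 4.14 ± 0.25 (SE), adjusted p = 5.14e-11). Myl10, a myosin light chain, was at 3.44, 1.83, 1.57, 2.94 and 0.472 against 0, 0.138, 0.0794, 0.0669 and 0.0261. Gimap1 rose by 4.71 ± 0.35 on the log2 scale.

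Myeloid priming genes were lower in the stem gate, as its limit on Elane and Ms4a3 sets for granule genes. Of 23, 22 were tested and 19 fell, beside 12.5% of all genes tested. None rose, and Irf8, Csf3r and Lyz2 did not pass (list median -1.41). Mpo (ENSMUSG00000009350, chr11:87793581-87804413, plus strand), the myeloperoxidase of azurophil granules, was at 4.13, 2.65, 5.58, 3.58 and 3.97 UMIs per 10000 against 40.4, 35.7, 37, 33.8 and 35.5 (log2 fold change -3.205 ± 0.11 (SE), adjusted p = 1.06e-14). It was still present in 78 of 118 members against 16.4% of neutrophils, and in 23.7% against 5.099% after thinning. Ctsg, the granule protease cathepsin G, was at 0.689, 1.23, 3.49, 1.93 and 2.49 against 25.9, 19.5, 24.8, 20.2 and 30.6 (log2 fold change -3.55 ± 0.17 (SE), adjusted p = 1.80e-12). Prtn3 (proteinase 3) had a UMI in 107 members. Away from the granule genes, Alas1, the first enzyme of haem synthesis, and Mt1, a metallothionein, fell by 3.41 ± 0.28 and 3.36 ± 0.19, F13a1 by 3.38 ± 0.31 and the monocyte antigen Ly6c2 by 2.81 ± 0.15. Dmkn had the largest fall (log2 fold change -4.26 ± 0.496), with 3 UMIs over all members. Rgcc, Anxa3 and Atp8b4 fell by 2.70 to 2.77. Of 10 monocyte genes 6 were tested and 4 fell, Ly6c2 and F13a1 among them. The stem gate allowed no Csf1r UMI and 39 of the 97 cells of the GMP gate held one, so the monocyte genes are not independent of the rule either.

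**Figure D3:**
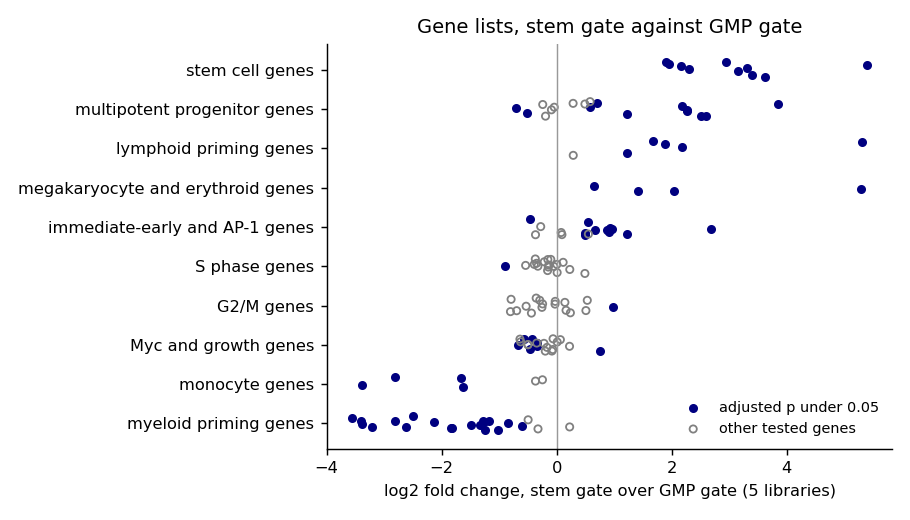
Log2 fold change of stem gate over GMP gate (horizontal axis) for every tested gene of 10 lists (vertical axis), from counts summed per library in 5 libraries. Filled points passed an adjusted p under 0.05. The 10 tested stem cell genes lie above 0, from 1.902 to 5.395, and the 19 myeloid priming genes that passed lie below it.

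Few genes of the cell cycle passed. Of 24 S phase genes 18 were tested and 1 fell, Rrm2, a subunit of ribonucleotide reductase (-0.89 ± 0.201). Of 20 G2/M genes 17 were tested and 1 rose, the kinetochore gene Cenpf (0.98 ± 0.28), beside 13.3% higher and 12.5% lower over all genes tested. With no filter 2 of the 24 S phase genes fell, and of the 20 G2/M genes 2 rose and 5 fell, beside 575 higher and 724 lower of all 13571 genes. Top2a, the mitotic topoisomerase, had a log2 fold change of 0.14 ± 0.17 and was found in 51 members. The 20 G2/M genes summed to 5 or more UMIs in 4 of 10, 13 of 30, 8 of 28, 16 of 36 and 7 of 14 members on days 0, 3, 6, 9 and 12, and 16 of 118 members had none. Among cyclins and inhibitors, Ccnd2, the D-type cyclin, rose by 1.31 ± 0.22 and Cdkn1a, the p21 inhibitor, by 0.97 ± 0.29, and 5 of the 7 tested did not pass. Of 24 Myc and growth genes 21 were tested, 6 fell and 1, Myc itself, rose (0.75 ± 0.24), and with no filter 10 fell.

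Of 21 immediate-early genes 16 were tested, 10 rose and 1, Ier2, fell. Over all genes tested 13.3% rose and 12.5% fell, which applies to each list of this paragraph. The other lists here are short, and their counts describe the named genes only. Nr4a1, an orphan nuclear receptor, had the largest rise in this list (2.69 ± 0.31), followed by Egr1 (1.23 ± 0.26), while Jun (0.09 ± 0.14) and Klf2 (-0.28 ± 0.17) did not pass. Enzyme digestion and freezing preceded the libraries of every day, and their part in these levels was not tested. Of 8 tested receptors Flt3 and the insulin-like growth factor receptor Igf1r (1.06 ± 0.23) rose, and Ifngr1 (-1.32 ± 0.201) and Cxcr4 (-0.83 ± 0.28), the receptor that holds progenitors in the marrow, fell. Of 11 tested adhesion genes the integrin Itga4 (1.11 ± 0.26), Cd47 (0.33 ± 0.11) and Cd9 rose and Cxcr4 fell. Of 5 tested interferon-stimulated genes Ifitm3 (0.65 ± 0.11) and Trim30a (0.91 ± 0.32) rose. Of 8 tested heat-shock genes Hspa5, the chaperone of the endoplasmic reticulum, fell by 1.28 ± 0.12, Hspe1 and Hspd1 fell by less, and Hsp90ab1 rose by 0.26 ± 0.08, a call lost with no filter (adjusted p = 0.542). The nuclear noncoding RNA Malat1 rose by 0.81 ± 0.08. Of 8 tested dendritic genes Flt3, Runx2 (1.76 ± 0.299) and Tcf4 (1.04 ± 0.24) rose, the last a factor of plasmacytoid dendritic cells, while Siglech, which defines those cells, had a UMI in 5 members. Of 12 tested neutrophil genes only Ifitm6 passed, and of the T and NK list Ccl5, the one tested gene, fell (-1.301 ± 0.36).

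Against the Csf1r gate of 19 cells, whose days held 1, 3, 2, 7 and 6 cells, few genes passed the test. With so few cells this is no sign that the 2 gates were alike. Csf1r, the receptor of macrophage growth factor, marks cells that lean to the monocyte lineage. Of 1154 genes tested 1 was higher (0.0867%) and 2 lower (0.173%) in the stem gate. Ctla2a was at 7.38, 6.52, 4.598, 3.81 and 4.58 UMIs per 10000 on days 0, 3, 6, 9 and 12 against 0, 0.572, 1.56, 0.684 and 1.66 (log2 fold change 2.42 ± 0.35 (SE), adjusted p = 0.00901). Lgals1 (galectin 1) was lower in 4 of 5 libraries, at 1.77, 2.43, 3.03, 2.603 and 7.41 against 30.3, 18.1, 34.4, 17.1 and 5.73 (log2 fold change -2.53 ± 0.43 (SE), adjusted p = 0.0235), and is named because only 3 genes passed. Ctsg was lower in all 5 libraries (log2 fold change -1.41 ± 0.27 (SE), adjusted p = 0.0481). With no filter 43 genes of 12835 passed, and on days 3, 6 and 9 alone 38 of 2406 did. Leaving out any of the libraries of days 3, 6 and 9 left no gene, leaving out day 0 left 1, and leaving out day 12 gave 11. Of the 3 stem cell genes tested none passed (median log2 fold change 0.88). With no filter 4 of 25 were higher (Hlf, Meis1, Myct1 and Angpt1) and 0 lower, and 6 of 23 myeloid priming genes were lower. DESeq2 called 6 genes, and 106 of the 1154 had an unadjusted p under 0.05 in edgeR.

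Within the stem gate the cells were not alike. The following shares and levels are over 118 cells of 5 mice, describe these cells only, and carry counting intervals. The cells of all mice were pooled, so differences between mice enter these values. The part of the mouse in genes found together or apart was not tested. The 7 neutrophil-rich cells were left in for all comparisons within the gate, and their part in them was not tested. Cells with a Hlf UMI held less of the myeloid priming list, at 67.03 (65.04 to 69.1) UMIs per 10000 against 81.01 (78.9 to 83.2) in cells without. Not every gene of the list followed, since Prtn3 was at 6.16 (5.57 to 6.805) against 5.76 (5.198 to 6.36) and Ctsg at 1.83 (1.51 to 2.19) against 2.29 (1.94 to 2.68), with overlapping intervals for both. Mpo was present in 31 of the 60 cells with a Hlf UMI and in 47 of the 58 without, 51.7% (95% interval 38.4 to 64.8) against 81.03% (68.6 to 90.1). The cells with Hlf were the shallower ones (median depths 9266 and 10493 UMIs). Cells with a Mpo UMI were deeper than those without (medians 10931 and 8117.5). The part of depth in this difference was not tested. Irf8, a factor of monocyte and dendritic fate, was present in 14 of the 60 cells with a Hlf UMI and in 30 of the 58 without. Car2 was found in 55 of the 60 cells with a Hlf UMI and in 31 of the 58 without, 91.7% (95% interval 81.6 to 97.2) against 53.4% (39.9 to 66.7), and Meis1 in 44 of the 60 cells with a Hlf UMI and in 25 of the 58 without. The level of Lmo2 was 5.77 (5.2 to 6.39) UMIs per 10000 in cells with Hlf and 3.61 (3.17 to 4.099) in cells without.

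Dntt and Apoe were seldom found in the same cell. Apoe was also found in part of the B cells and neutrophils, as given above, so its presence in a cell may be background. Apoe was present in 2 of the 31 cells with a Dntt UMI and in 48 of the 87 without, 6.45% (95% interval 0.791 to 21.4) against 55.2% (44.1 to 65.9), and the cells with Dntt were the deeper ones (medians 11805 and 9551 UMIs). Il12a, which encodes a subunit of interleukin-12, went the other way, in 18 of the 31 cells with a Dntt UMI and in 19 of the 87 without, and Flt3 was found in 23 of the 31 cells with a Dntt UMI and in 39 of the 87 without. Hlf itself was found in 14 of the 31 cells with a Dntt UMI and in 46 of the 87 without, and its level was 0.845 (0.585 to 1.18) UMIs per 10000 with Dntt against 1.32 (1.09 to 1.58) without. The stem cell list was lower in cells with Dntt, at 10.2 (9.27 to 11.3) against 17.5 (16.7 to 18.4), and so was Car2, at 1.61 (1.25 to 2.06) against 3.66 (3.28 to 4.08). The myeloid priming list was at 76.1 (73.4 to 78.8) UMIs per 10000 in cells with Dntt and 73.4 (71.6 to 75.2) in those without.

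Cells with a Top2a UMI were deeper, at a median of 13819 UMIs against 8409. Their level of Hlf was 0.764 (0.575 to 0.994) UMIs per 10000 against 1.67 (1.36 to 2.04) in the cells without, that of Ly6a 0.319 (0.202 to 0.479) against 0.795 (0.584 to 1.06), and that of the Myc and growth list 70.6 (68.7 to 72.6) against 51.2 (49.4 to 53.1). Hlf and Ly6a were thus lower, and growth genes higher, where Top2a was seen.

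**Figure D4:**
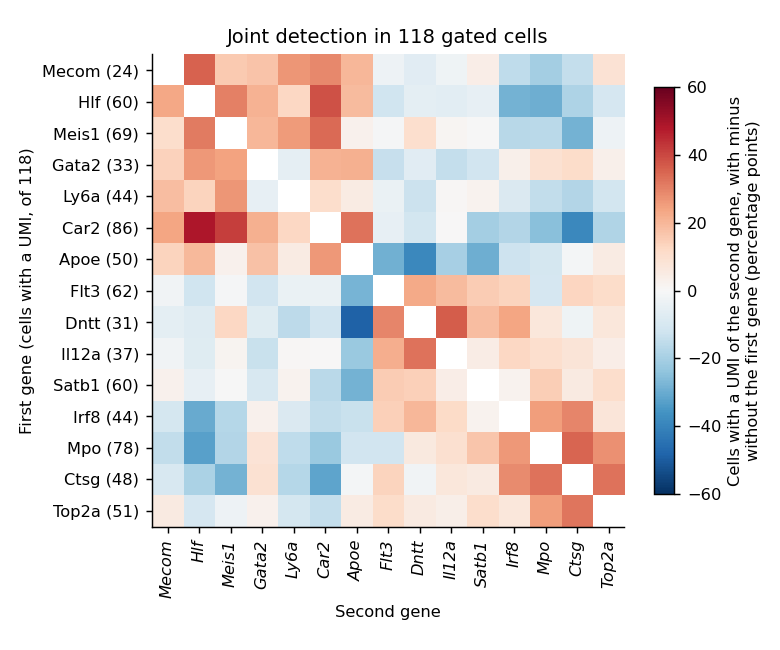
Difference in the percent of cells with a UMI of the second gene (columns) between members with and without the first gene (rows, with the number of cells of 118), in percentage points. Red fields, such as Hlf with Car2 or Dntt with Il12a, mark genes found together, and blue fields, such as Dntt with Apoe or Hlf with Mpo, genes found apart.

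Levels by day were set side by side as sums over the members of each mouse, scaled to 10000 UMIs, and compared with day 0 as a log2 ratio with 0.5 added to both levels, which understates the change of low genes. Of 1038 genes with at least 50 summed counts, 29 (2.79%) were more than 2-fold higher and 3 (0.289%) lower at day 3. At day 6 these were 25 (2.72%) and 4 (0.435%) of 920, at day 9 38 (3.41%) and 8 (0.717%) of 1115, and at day 12 11 (1.96%) and 3 (0.536%) of 560. Without the 7 neutrophil-rich cells 15, 16 and 21 were higher and 3, 4 and 4 lower at days 3, 6 and 9. All 4 comparisons share the 10 cells of day 0. Of the 10 neutrophil genes tested at day 3, 10 were past 2-fold, and at day 9 10 of 10. Without the 7 cells the list median went from 2.13 to 0.42 at day 3 and from 1.72 to 0.52 at day 9, and S100a8, Camp, Lcn2 and Wfdc21 were no longer past 2-fold, while Pglyrp1, another neutrophil gene, stayed at 1.62 and 1.46.

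Car2 was lower on each later day than on the one before it, at 4.63, 4.501, 3.196, 1.98 and 0.741 UMIs per 10000 on days 0, 3, 6, 9 and 12, with a UMI in 8, 24, 21, 26 and 7 of 10, 30, 28, 36 and 14 cells. At day 3 Car2 was 0.973-fold (95% counting interval 0.6999 to 1.376) of the day 0 level, which includes no change. Fold values given with a counting interval, here and below, have nothing added to the levels. At day 12 it was 0.1602-fold (95% counting interval 0.0749 to 0.313) of the day 0 level. Hlf was at 1.57, 1.42, 1.17, 1.16 and 0.337, with overlapping intervals on days 0 to 9 and a day 12 interval below them, and Meis1 was at 1.18, 1.17, 1.24, 0.696 and 0.741 with all intervals overlapping. Flt3, at 0.689, 0.791, 0.913, 1.06 and 1.01, also had overlapping intervals. Dntt was highest at day 0 and lowest at day 6 (4.23, 2.54, 0.522, 1.75 and 1.68, in 5, 6, 6, 9 and 5 cells). With each cell weighted alike its day 12 log2 ratio was -0.28 in place of -1.12. Apoe had 2 UMIs at day 0 and was at 0.197, 2.32, 1.04, 1.701 and 1.89 UMIs per 10000, past 2-fold higher at days 3 and 9, while days 6 and 12 fell under the minimum of 50 counts and were not compared. Mef2c, a factor of lymphoid and myeloid priming, was at 3.54, 1.96, 1.43, 1.52 and 3.17, and Sox4 at 3.84, 2.84, 2.805, 1.91 and 1.75. Irf8 was lowest at day 3 and highest at day 12 (1.08, 0.136, 1.24, 1.49 and 2.49).

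Cd69, an early activation antigen, was at 3.84, 0.355, 0.196, 0.515 and 1.28 UMIs per 10000 in the stem gate, with 39 UMIs in 7 of 10 cells at day 0. Klf2, a quiescence factor of lymphocytes, was at 3.15, 0.709, 0.815, 0.799 and 0.808. Both were also highest at day 0 outside the gate. In the GMP gate Cd69 was at 0.979, 0.157, 0.318, 0.167 and 0.523 and Klf2 at 3.28, 0.984, 0.794, 0.937 and 1.52, and in all other barcodes Cd69 was at 0.631, 0.202, 0.234, 0.231 and 0.234 and Klf2 at 10.3, 3.597, 3.79, 3.88 and 6.98. Egr1 went the other way in the stem gate (0.295, 1.42, 1.86, 2.29 and 1.68) but not in other barcodes (0.5097, 0.228, 0.254, 0.296 and 0.499). The part of the day 0 library in these values was not tested.

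Hist1h2ap, a replication-dependent H2A histone, had the largest ratio on each later day. It was at 0.5905, 9.93, 5.97, 13.9 and 9.97 UMIs per 10000, in 4, 14, 10, 16 and 6 cells, which is 23.5-fold (95% counting interval 10.7 to 64.4) at day 9 over day 0. In the GMP gate it was at 3.201, 5.27, 3.44, 6.01 and 2.301 and in all other barcodes at 1.85, 3.56, 4.36, 4.64 and 2.097, where days 0 and 12 were the lowest. The S phase list as a whole was at 18.7, 20.5, 14.9, 17.8 and 23.8 in the stem gate and the G2/M list at 10.6, 10.5, 10.5, 16.5 and 14.1. Histone copies of this cluster are near-identical, and the counting could have split reads between them. At day 12 Hist1h2ae, Lgals1, the S phase gene 2810417H13Rik and Rgs2, a regulator of G protein signalling, were past 2-fold, with Lgals1 at 1.77, 2.43, 3.03, 2.603 and 7.41. Ctsg and the selenoprotein Msrb1 were past 2-fold at day 6 (log2 ratios 1.75 and 1.62). Among lower genes, 1810022K09Rik was past 2-fold at days 6 and 9 (log2 ratios -1.24 and -1.09), Eif3j1 at day 3 (-1.14) and Ube2a at day 9 (-1.08, or -0.97 without the 7 cells). Ccnd2 at day 3, Eif4ebp1 at day 6, and mt-Nd5 and Sox4 at day 12 ranked among the 5 lowest without passing 2-fold on the log2 ratio with 0.5 added. With nothing added they were 0.434, 0.408, 0.469 and 0.456-fold of the day 0 level.

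**Figure D5:**
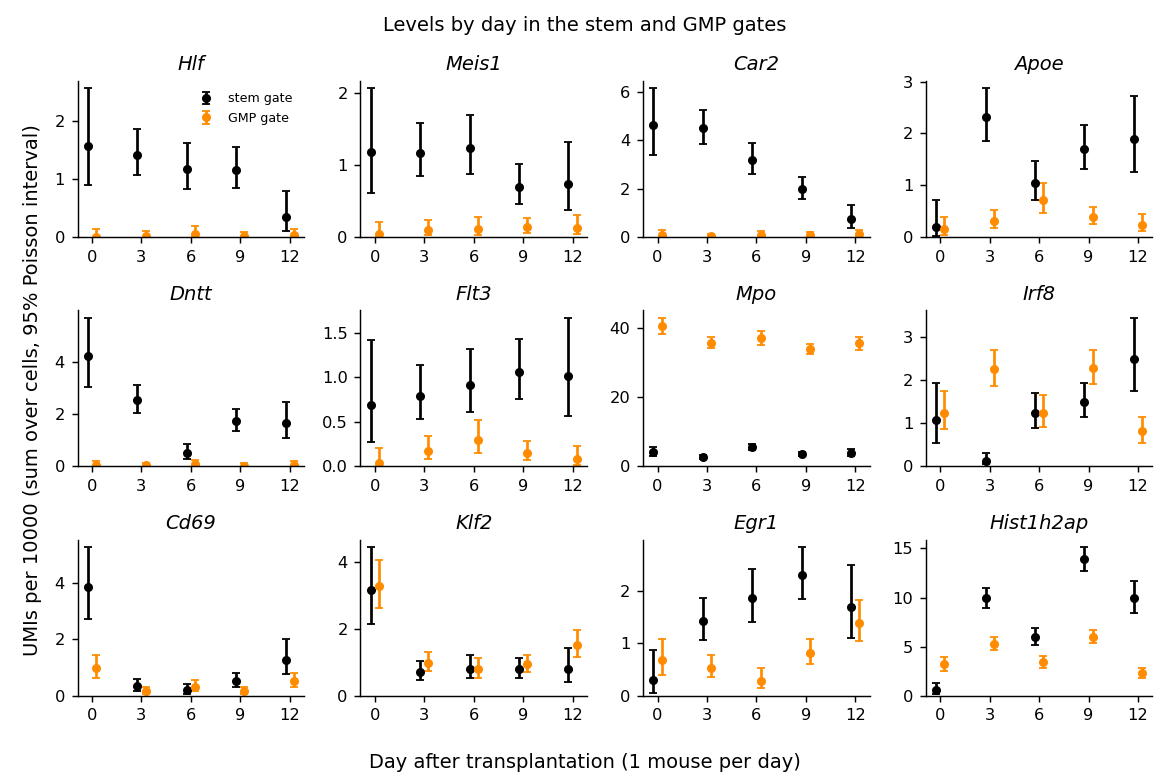
UMIs per 10000 (vertical axes, each from 0) of 12 genes by day after transplantation in the stem gate (black) and the GMP gate (orange), 1 mouse per day. Points are sums over the cells of a gate and bars are exact 95% Poisson intervals, which cover counting error only. Car2 was at 4.63 at day 0 and at 0.741 at day 12 in the stem gate.

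The lists gave few further differences by day. The 1 erythrocyte gene with enough counts at day 9, a haemoglobin gene, was past 2-fold higher (log2 ratio 1.42, or 1.06 without the 7 cells), and free RNA held more of this list on day 9 than on any other day. Of the multipotent progenitor genes 9 to 12 were tested at days 3, 6 and 9 and none was past 2-fold in either direction, and of the stem cell genes 3 to 5 were tested with none past 2-fold. Lymphoid priming genes had list medians of -0.45, -1.06, -0.57 and -0.63 at days 3, 6, 9 and 12, over 4, 3, 4 and 2 genes, with Dntt and Mef2c the members past 2-fold. Myeloid priming genes had medians of 0.54, 0.99, 0.85 and 0.35. Without the 7 cells these were 0.34, 0.87, 0.67 and 0.35, beside medians over all genes of -0.06, -0.05, -0.03 and 0.02. Cdk6 was at 1.87, 2.13, 4.696, 3.97 and 3.57 UMIs per 10000 and was past 2-fold at day 6 (1.13). At day 9 the G2/M genes Top2a and Ube2c were past 2-fold (1.14 and 1.16).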

How the data were processed

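Single-cell RNA sequencing was done on whole marrow of 5 mice, 1 per day. The authors deposited raw UMI counts per gene and barcode, empty droplets included, made with Cell Ranger 2.1.1 on mm10 (per the study's methods and the submitters' notes). Raw counts were taken as deposited. Members were selected by the count limits given above, and cells were not clustered. The limits, gene lists and comparators were chosen with earlier results of these data known. Counts were summed per gate and library and tested with edgeR 4.0.16 (quasi-likelihood, filterByExpr, TMM, Benjamini-Hochberg adjustment over all genes tested) with library as a block and the 10 gate genes left out. DESeq2 1.42.0 was an alternative. The 5 mice, not their cells, served as replicates, and since they differ in day the test asks what held across them. No test was made between days. Named genes were the gate genes, Lmo2 and Cdk6, genes of the 25 lists, the 10 highest and 10 lowest by fold (adjusted p under 0.05, at least 100 counts, same direction in every library) against the GMP gate, 5 and 5 against the Csf1r gate, and 5 and 5 for each day. The scripts were tested on simulated data. Doublets were left in, since Scrublet's calls (scanpy 1.11.5) did not work, and cells of its highest 5% of scores were left out as an alternative. Other alternatives were other count filters, no library block, cells thinned to 3000 UMIs, a mitochondrial limit of 5%, leaving out each library, another pseudocount, and, chosen after seeing the data, leaving out the 7 cells rich in neutrophil genes and using days 3, 6 and 9 only. Positions are from GENCODE vM21 (GRCm38). Some genes of the lists are not reported here.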

Additional observations from a re-analysis of the deposited data

How the results depend on the processing

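Between days, no paired analysis was possible because each day had 1 mouse. In the tests between gates both gates of a library were paired by the library term, and without it 825 genes passed against the GMP gate (426 higher, 399 lower). All 20 genes named against the GMP gate kept their direction and passed in every alternative in which they were tested. The number of genes that passed there was 960 (496 higher, 464 lower). It was 395 (201 and 194) with DESeq2, 189 (92 and 97) of 644 tested after thinning cells to 3000 UMIs, and 1299 (575 and 724) of 13571 tested with no filter. Leaving out 1 library gave 651 to 911 genes (330 to 488 higher, 321 to 423 lower), the lowest number higher without day 9. Against the Csf1r gate 3 genes passed (1 and 2). This was 6 (5 lower) with DESeq2, 43 (31 and 12) with no filter, 2 higher with at least 10 counts in 5 columns, 1 lower without the highest doublet scores, 5 (2 higher) after thinning, 0 higher and 0 lower of 0 in all with a 5% mitochondrial limit (101 at an unadjusted p under 0.05), 6 (2 and 4) without the 7 neutrophil-rich cells, and 38 (24 and 14) on days 3, 6 and 9. Leaving out 1 library gave 0 to 11 (0 to 4 higher, 0 to 7 lower). The day 3 share was 0.217% after thinning. For genes past 2-fold at days 3, 6, 9 and 12, thinning gave 18, 8, 15 and 2 higher and 0 (day 3), 4 (day 9) and 1 (day 12) lower, of 183 to 289 genes tested. A minimum of 20 counts gave 48, 44 and 34 higher at days 3, 6 and 12 and 11, 18, 19 and 15 lower, with more genes tested. A pseudocount of 1 gave 13 higher at day 6 and 24 higher and 2 lower at day 9. Without the 7 cells 15, 16 and 21 were higher at days 3, 6 and 9, and 4 lower at day 9, and without the highest doublet scores 21 and 4 at day 9. A mean over cells gave 5 lower at day 9. No direction was reversed. Depth limits the rare genes, since a gene at 0 in the 10 cells of day 0 could still be at 0.295 UMIs per 10000 (3 counts).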
